A study of Mus musculus with 6 samples.

Results

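The NF-κB family was followed through 10 genes, chosen by name: the 5 subunit genes Nfkb1, Nfkb2, Rel, Rela and Relb and the 5 inhibitor genes Nfkbia, Nfkbib, Nfkbie, Nfkbiz and Bcl3. All 10 were among the 44678 Ensembl genes of the count files, and all 10 passed the filter on low counts that left 13024 genes for the test. Their levels were compared in 6 RNA-seq libraries, 3 from wild type (WT) mice and 3 from miR-144/451 knockout (KO) mice. WT mice were C57BL/6J, and KO mice carried on the C57BL/6J background the deletion of a genomic segment that holds the precursors of miR-144 and miR-451. The deletion is carried by the whole animal, so no promoter or Cre restricts it to a cell type. The sample records describe untreated CD8a+ leukocytes of the spleen in both groups, and the study worked with young adult mice. The study sequenced these transcriptomes to ask whether the microRNA cluster acts on DCs through the genes it regulates. Whether each library came from a separate animal is not stated in the sample records, so the p-values below measure the spread between these libraries, which may be technical.

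NF-κB factors are dimers of Rel-domain proteins that wait in the cytoplasm of resting cells. In the canonical pathway, receptors for TNF, IL-1, Toll-like receptor ligands and antigen activate the IκB kinase complex, the IκB inhibitors are destroyed, and dimers such as p50:RelA or p50:c-Rel enter the nucleus and bind κB motifs in DNA. In the non-canonical pathway, receptors such as CD40, BAFF receptor and lymphotoxin β receptor stabilize the kinase NIK, p100 is processed to p52, and p52:RelB enters the nucleus. Much of this control acts on the proteins, which RNA levels do not show. Several members are also targets of NF-κB themselves, which gives the pathway feedback at the level of RNA. In lymphocytes and dendritic cells (DCs), NF-κB serves survival, activation and cytokine production.

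On GRCm38, the annotation places the subunit genes Nfkb1 (ENSMUSG00000028163) on chromosome 3 from 135584655 to 135691547, minus strand, Nfkb2 (ENSMUSG00000025225) on chromosome 19 from 46304320 to 46312385, plus strand, Rel (ENSMUSG00000020275) on chromosome 11 from 23736847 to 23770970, minus strand, Rela (ENSMUSG00000024927) on chromosome 19 from 5637483 to 5648130, plus strand and Relb (ENSMUSG00000002983) on chromosome 7 from 19606217 to 19629438, minus strand. The inhibitor genes are Nfkbia (ENSMUSG00000021025) on chromosome 12 from 55489410 to 55492647, minus strand, Nfkbib (ENSMUSG00000030595) on chromosome 7 from 28758251 to 28767512, minus strand, Nfkbie (ENSMUSG00000023947) on chromosome 17 from 45555703 to 45563169, plus strand, Nfkbiz (ENSMUSG00000035356) on chromosome 16 from 55811375 to 55838899, minus strand and Bcl3 (ENSMUSG00000053175) on chromosome 7 from 19808462 to 19822770, minus strand.

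The deleted microRNAs are shown first, since the genotypes differ by them. The mature strands, from RefSeq on GRCm38.p6, are printed with the seed (bases 2 to 8) in capitals. The 3 seeds differ from one another, so no family is shared.
mmu-miR-144-5p at chr11:78073010-78073032, plus strand: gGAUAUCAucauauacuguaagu
mmu-miR-144-3p at chr11:78073047-78073066, plus strand: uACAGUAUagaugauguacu
mmu-miR-451a at chr11:78073186-78073207, plus strand: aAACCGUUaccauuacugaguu
Mir144 and Mir451a had 0 counts in all 6 libraries together, so these counts gave no check of the deletion.

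Rel was the one member whose annotated 3′-UTR held a 7-base match to a deleted microRNA's seed. For each gene the transcript with the longest coding sequence in GENCODE M21 (GRCm38) was searched for the reverse complement of each seed. The 3′-UTR of Rel, 5418 bases long and the longest of the 10, held 1 match for miR-144-5p and 1 for miR-144-3p, both in exon 10 of 10. The 29 bases around each site are shown with the match in capitals.
Rel, miR-144-5p site at chr11:23741833-23741839, minus strand: tgaaattagctTGATATCtgtattttcaa
Rel, miR-144-3p site at chr11:23736886-23736892, minus strand: aatatctttgtATACTGTgatttttgttg
The 3′-UTRs of the other 9 members ran from 133 bases in Nfkb2 to 1355 bases in Nfkbiz, against a median of 975 bases over the tested genes. Among the 11420 tested genes with a 3′-UTR, 4.84% held a match for miR-144-5p, 12.1% for miR-144-3p and 1.73% for miR-451a. Long 3′-UTRs hold more matches by length alone, and among the 378 genes with at least 5000 bases the shares were 24.3%, 48.7% and 5.82%. A match of these letters is a description of the sequence and not a site shown to act.

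Promoter windows were read next, because several members are known to be NF-κB targets. RefSeq windows on GRCm38.p6, 300 bases each and spanning a start site, were found for 7 of the 10 genes, with 3 windows for Nfkb2 of which the last overlap each other. Nfkb1, Relb and Nfkbiz had none. The 10-base κB motif was searched on both strands, overlapping matches counted by their first base. It occurred in 7 of the 9 windows and in 5 of the 7 genes, Nfkb2, Rel, Nfkbia, Nfkbie and Bcl3, but not in the windows of Rela and Nfkbib. Of all 32851 promoter windows of this length, 4.51% held a match. The first window of Nfkb2, the one with the most matches, and those of Rel, the most variable member, and of Nfkbia, the classical feedback gene, are shown with matches in capitals, in the direction of the gene.
Nfkb2, chr19:46304487-46304786, plus strand: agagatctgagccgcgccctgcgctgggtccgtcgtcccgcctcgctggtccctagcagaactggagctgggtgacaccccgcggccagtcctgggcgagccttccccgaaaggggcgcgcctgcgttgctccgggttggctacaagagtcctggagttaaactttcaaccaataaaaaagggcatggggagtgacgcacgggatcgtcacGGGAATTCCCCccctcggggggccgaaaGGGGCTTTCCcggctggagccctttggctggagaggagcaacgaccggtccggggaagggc
Rel, chr11:23770920-23771219, minus strand: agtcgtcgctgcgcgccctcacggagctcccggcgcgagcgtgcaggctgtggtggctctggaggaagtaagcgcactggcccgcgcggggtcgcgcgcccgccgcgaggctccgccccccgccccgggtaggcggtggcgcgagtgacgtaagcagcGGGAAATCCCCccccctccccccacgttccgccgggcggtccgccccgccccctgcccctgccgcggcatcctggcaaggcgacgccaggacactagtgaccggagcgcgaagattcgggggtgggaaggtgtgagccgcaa
Nfkbia, chr12:55492598-55492897, minus strand: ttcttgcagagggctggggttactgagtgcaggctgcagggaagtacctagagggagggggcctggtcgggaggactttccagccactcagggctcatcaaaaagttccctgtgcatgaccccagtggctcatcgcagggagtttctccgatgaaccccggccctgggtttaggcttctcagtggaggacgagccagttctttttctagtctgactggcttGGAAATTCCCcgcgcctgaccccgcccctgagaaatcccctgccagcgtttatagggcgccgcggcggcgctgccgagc
The first run of capitals in Nfkb2 and the run in Rel each hold 2 overlapping matches. The other windows of Nfkb2, not shown whole, held ggaatgtccc and, where they overlap, gggactttcc. Bcl3 had the match gggaagtccc and Nfkbie had gggggattcc. The missing match in Rela and Nfkbib says only that these letters are not in this window.

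The 6 libraries were similar in depth, but not in cell type markers. They held between 8143920 and 8876510 counts each, and levels are given as CPM, read counts relative to library size, scaled by TMM factors. Before that scaling 3 counts correspond to 0.338 to 0.368 CPM, which is the limit a count of 0 allows for counting error alone. The B cell list (8 markers, none at 0) summed to 2519, 2633 and 2861 CPM in WT1, KO1 and KO2 and to 1492, 1438 and 1229 CPM in WT2, WT3 and KO3. The libraries therefore parted across the genotypes, and the range was 1438 to 2519 CPM in WT and 1229 to 2861 CPM in KO. Monocyte or macrophage markers (7, none at 0) followed the same split, with 1077 to 1741 CPM in WT and 1113 to 1900 CPM in KO libraries. T cell markers (8, none at 0) were lower in WT1, KO1 and KO2 than in WT2, WT3 and KO3, and ran from 2883 to 3863 CPM in WT and from 2023 to 3677 CPM in KO libraries. The list for CD8a+ conventional DCs (cDC1; 7 markers, none at 0) summed to 573 to 653 CPM in WT and to 811 to 871 CPM in KO libraries, without overlap. Wdfy4, at 342 CPM in WT and 478 CPM in KO libraries on average, made up most of this sum. Of the 7 markers, Wdfy4, Flt3 and Naaa had no overlap between the genotypes, whereas Xcr1, Clec9a, Itgax and Batf3 overlapped. All KO libraries were above all WT libraries for 5.83% of all tested genes. Erythroid markers (7) summed to 245 to 853 CPM in WT and to 443 to 2700 CPM in KO libraries, with the maximum in KO2. Neutrophil markers (5) summed to 203 to 836 CPM in WT and to 337 to 1037 CPM in KO, plasmacytoid DC markers (5) to 369 to 435 CPM in WT and to 325 to 498 CPM in KO, and NK cell markers (4) to 115 to 126 CPM in WT, inside the KO range. Cd8a itself, the marker in the sample records, lay between 694 and 1041 CPM in WT and between 476 and 1030 CPM in KO libraries. T cell markers had a larger sum than cDC1 markers in every library. The levels below are those of a mixture and not of DCs alone. In such bulk samples, fewer cells of a type and less RNA per cell cannot be told apart.

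No member differed between KO and WT at an adjusted p-value under 0.05. The background was 4 of the 13024 tested genes, or 0.0307%, with the quasi-likelihood test of edgeR and p-values adjusted by Benjamini-Hochberg over all of them. Without adjustment, 0 of the 10 members had a p-value under 0.05, against 6.25% of all tested genes, and DESeq2 and limma voom likewise gave 0 of 10 at either threshold. At the adjusted threshold DESeq2 called 56 of 13020 genes and limma voom 3 of 13024. Their shares of all genes at the unadjusted threshold were not counted. KO means were higher for 5 members and lower for 5, where 50.6% of all tested genes were higher. The median log2 fold change (KO against WT) was 0.0098 over the members and 0.0030 over all tested genes. The subunits had a median of 0.033 with 4 of 5 higher, and the inhibitors a median of -0.083 with 1 of 5 higher. This split depended on a single library. Without KO replicate 2, the members higher in KO were 2 of 10, Rel and Relb. In that fit the log2 fold changes of Nfkb1, Nfkb2 and Nfkbie turned to -0.013, -0.028 and -0.071. 

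**Figure D1:**
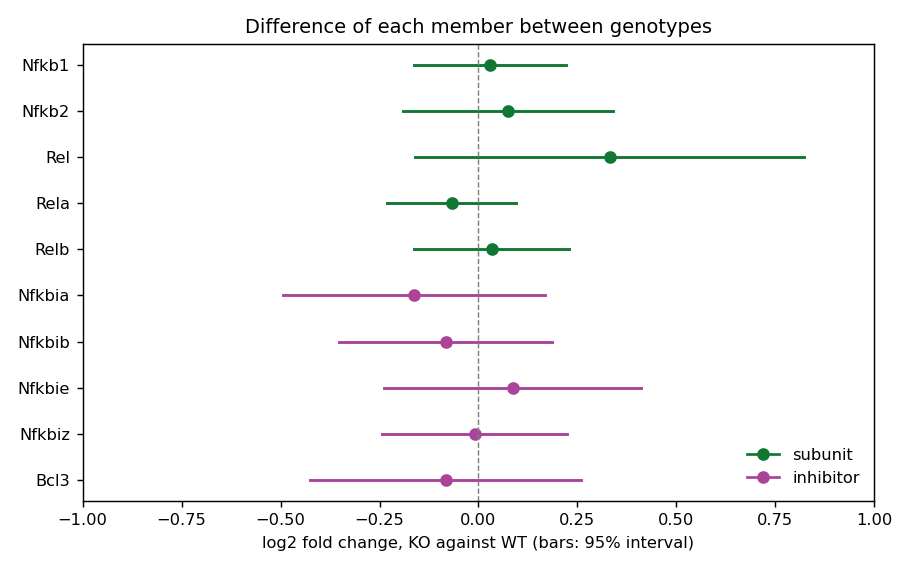
Log2 fold change of each member in KO against WT libraries (x axis, log2 scale), with points for the fitted value and bars for the 95% interval of edgeR's quasi-likelihood fit; subunits are green and inhibitors purple. All 10 bars cross 0, and that of Rel is the widest, from -0.16 to 0.82.

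Among the subunits of the canonical pathway, Nfkb1 and Rela were the steadiest. Nfkb1 encodes p105, the precursor of p50. Its level was 306, 319 and 316 CPM in WT and 314, 339 and 308 CPM in KO libraries. KO2 lay above all WT libraries, and KO1 and KO3 lay inside the WT range. The mean was 314 ± 6.66 (WT) and 320 ± 16.3 CPM (KO, each SD, n = 3), and the log2 fold change was 0.029 ± 0.083 (SE; edgeR, adjusted p = 0.952). Its 95% interval reached from 0.894-fold to 1.17-fold.

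Rela encodes RelA (p65), the subunit that activates most canonical targets. It had 154, 150 and 155 CPM in WT and 148, 145 and 146 CPM in KO libraries. All 3 KO libraries were thus below all 3 WT libraries, which held for 1 of the 10 members and for 5.64% of all tested genes. The means were 153 ± 2.94 CPM (SD, n = 3) and 146 ± 1.44 CPM (SD, n = 3). The log2 fold change of -0.068 ± 0.071 (SE) did not pass the test (edgeR, adjusted p = 0.879). The standard deviations of Rela, 1.92% of the mean in WT and 0.988% in KO libraries, were smaller than the counting error alone, which was 2.77% and 2.83%.

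Rel varied most of all members. It encodes c-Rel, a subunit abundant in lymphocytes. The WT libraries had 204, 162 and 142 CPM and the KO libraries 203, 280 and 157 CPM. KO2 stood above all others, while KO1 and KO3 lay inside the WT range. The mean was 169 ± 31.8 (WT) and 213 ± 61.7 CPM (KO, each SD, n = 3), and the SD was 7.16 and 12.3 times the counting error. Rel had the largest log2 fold change of the 10, 0.33 ± 0.21 (SE; edgeR, adjusted p = 0.819), and its 95% interval went from 0.895-fold to 1.77-fold. Without KO replicate 2 the log2 fold change was 0.088, and without KO replicate 3 it was 0.49 (edgeR, adjusted p = 0.288). In the latter fit the unadjusted p-value of edgeR was under 0.05 (0.0272).
The 3 libraries with the most Rel, KO2, WT1 and KO1, were the 3 with the highest sums of B cell and of monocyte or macrophage markers. With the mean log2 level of the B cell, monocyte or macrophage and cDC1 markers as a covariate, the log2 fold change of Rel was 0.018 (edgeR, adjusted p = 0.991). The cDC1 markers in this covariate summed to 573 to 653 CPM in WT and to 811 to 871 CPM in KO libraries. The covariate can therefore take up part of the genotype difference, and this fit cannot separate cell make-up from genotype. The part of these cells in the level of Rel was not tested. Rel lies on the chromosome of the deleted locus, 54.3 Mb from Mir144.

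The ranges of the non-canonical subunits overlapped between the genotypes. Nfkb2 encodes p100, the precursor of p52. It reached 156, 145 and 161 CPM in WT and 164, 184 and 138 CPM in KO libraries. The KO libraries took both the 2 highest values and the lowest. The mean was 154 ± 8.42 (WT) and 162 ± 23.4 CPM (KO, each SD, n = 3), a log2 fold change of 0.074 ± 0.12 (SE; edgeR, adjusted p = 0.913). Without KO replicate 2 its log2 fold change was -0.028, and with the marker covariate -0.058.
Relb encodes RelB, the partner of p52. Its values were 80.7, 83.6 and 93.9 CPM in WT and 89.7, 88.2 and 86.3 CPM in KO libraries, so that every KO library fell inside the WT range. The log2 fold change was 0.033 ± 0.085 (SE; edgeR, adjusted p = 0.947). Its 95% interval, from 0.894-fold to 1.17-fold, was among the narrowest of the 10.

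The classical inhibitors hold Rel dimers in the cytoplasm, and IκBα, the product of Nfkbia, is the one that NF-κB resynthesizes fastest. Nfkbia had 201, 172 and 198 CPM in WT and 157, 209 and 145 CPM in KO libraries. KO1 and KO3 were below all WT libraries, but KO2 was above them. The means were 190 ± 15.9 (WT) and 170 ± 34.3 CPM (KO, each SD, n = 3). The log2 fold change was -0.16 ± 0.14 (SE; edgeR, adjusted p = 0.870), the largest fall in mean of the 10, and its 95% interval ran from 0.710-fold to 1.12-fold. Without KO replicate 3 it was -0.080, without KO replicate 2 it was -0.34 and with the marker covariate -0.32. In the last 2 fits the unadjusted p-value was under 0.05 (0.0152 and 0.0325), but neither passed after adjustment by edgeR.

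Nfkbib and Nfkbie encode IκBβ and IκBε. Nfkbib had 42.2, 43.7 and 52.5 CPM in WT and 41.8, 47.8 and 41.1 CPM in KO libraries. The ranges overlapped, and the log2 fold change was -0.083 ± 0.12 (SE; edgeR, adjusted p = 0.904). Nfkbie had 61.2, 52.8 and 61.5 CPM in WT and 58.9, 75.1 and 52.4 CPM in KO libraries. Here KO2 was the highest library and KO3 the lowest. The log2 fold change was 0.087 ± 0.14 (SE; edgeR, adjusted p = 0.918), and -0.071 without KO replicate 2.

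Nfkbiz and Bcl3 encode the nuclear IκB proteins IκBζ and Bcl-3, which bind p50 or p52 dimers on DNA and can activate as well as repress. Nfkbiz had 166, 159 and 178 CPM in WT and 155, 188 and 156 CPM in KO libraries. Its means were nearly equal, 168 ± 9.46 (WT) and 166 ± 19.1 CPM (KO, each SD, n = 3), with a log2 fold change of -0.0099 and a standard error of 0.10 (edgeR, adjusted p = 0.989). Bcl3 had 43.9, 44.5 and 41.4 CPM in WT and 43.3, 47.6 and 31.7 CPM in KO libraries. A low value in KO3 and a high value in KO2 set its spread. The log2 fold change of Bcl3 was -0.083 ± 0.15 (SE; edgeR, adjusted p = 0.926), and 0.049 without KO replicate 3. Relb and Bcl3 are neighbours on chromosome 7, 179 kb apart, and Relb showed neither the low KO3 nor the high KO2 value of Bcl3.

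**Figure D2:**
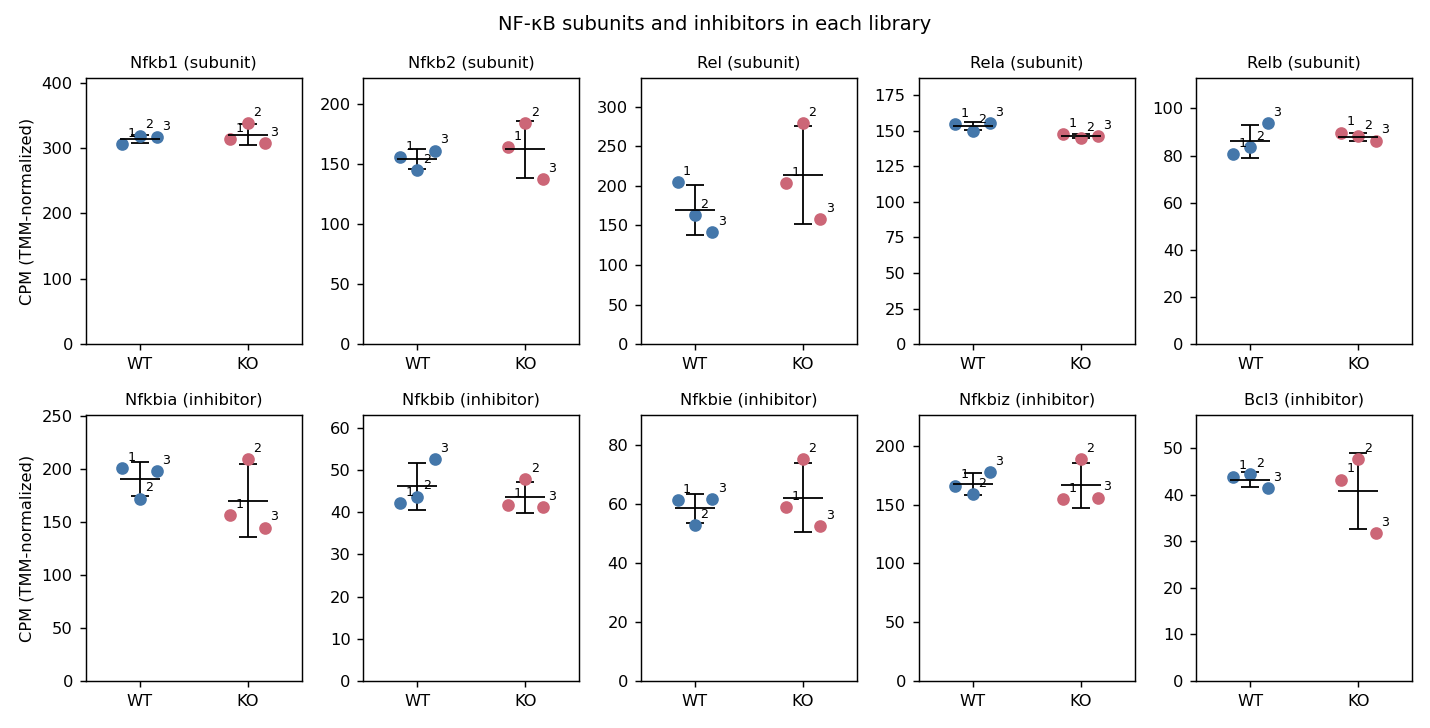
TMM-normalized CPM of each member (y axis, from 0) in the 3 WT (blue) and 3 KO (red) libraries, with the replicate number beside each point and black bars for the mean and SD (n = 3). The groups overlap in 9 of 10 panels, and in that of Rela the KO libraries at 145 to 148 CPM lie just under the WT libraries at 150 to 155 CPM.

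How precisely the members were measured differed. Aside from Rel, the upper 95% bound of the fold change was at most 1.33-fold (Nfkbie), and the lowest lower bound over all 10 was that of Nfkbia at 0.710-fold. The SD in WT libraries was between 0.694 (Rela) and 7.16 (Rel) times the counting error, and in KO libraries between 0.349 (Rela) and 12.3 (Rel) times.

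KO2 was the highest and KO3 the lowest library for 4 of 10 members, Nfkb2, Nfkbia, Nfkbie and Bcl3. The share of all tested genes with both was not counted. KO2 was the highest of the 6 libraries for 7 of 10 members, Nfkb1, Nfkb2, Rel, Nfkbia, Nfkbie, Nfkbiz and Bcl3, where it was the highest for 22.9% of all tested genes. KO3 was the lowest for 5 of 10 members, Nfkb2, Nfkbia, Nfkbib, Nfkbie and Bcl3, against 15.5% of all tested genes. The median coefficient of variation of the members was 6.87% in WT and 13.0% in KO libraries. Over the 4534 tested genes with a mean between the lowest and the highest member, from 42.1 to 317 CPM, it was 7.70% in WT and 7.68% in KO libraries. The coefficient was larger in KO libraries for 7 of 10 members and for 52.5% of those 4534 genes. KO2 had the highest and KO3 the lowest sum of B cell markers, 2861 and 1229 CPM. For T cell markers KO2 had the lowest sum, 2023 CPM, and KO3 had 3677 CPM, below WT2 and WT3. The part of cell composition in this spread was not tested.
The 5 members with a κB motif in a promoter window were all highest in KO2, and Rela and Nfkbib, without one, were not. Nfkb1 and Nfkbiz, which had no window, were highest in KO2 too. Relb, also without a window, was highest in WT3, at 93.9 CPM against 88.2 CPM in KO2. With 7 genes and 1 library these are a description only.

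**Figure D3:**
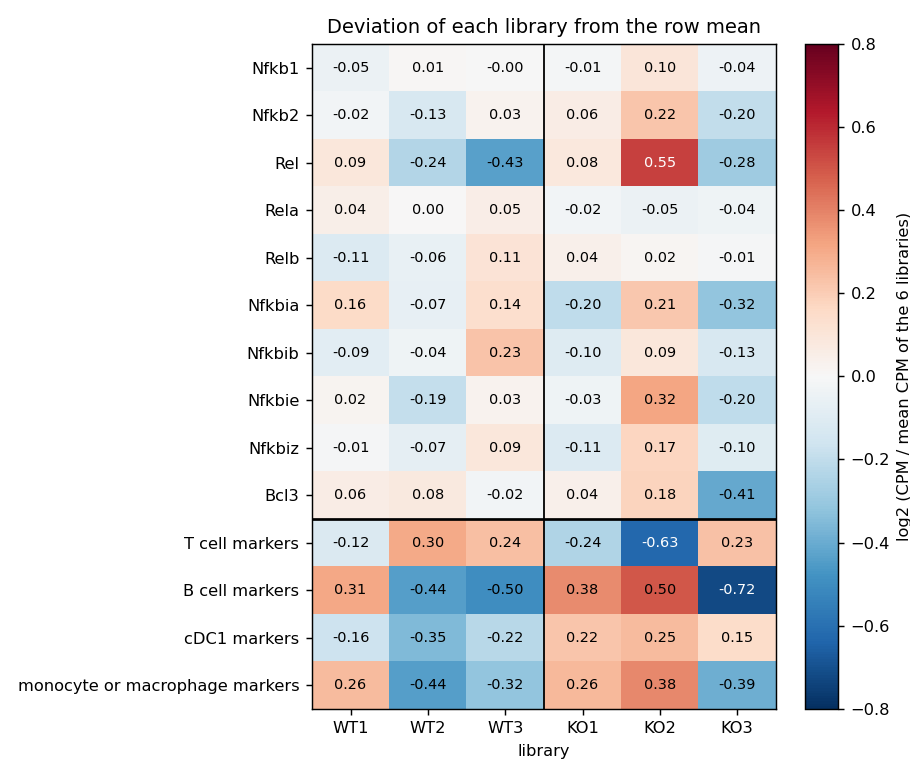
Log2 of each library's CPM over the mean of the 6 libraries, for the 10 members (above the line) and for the summed markers of 4 cell types (below it), with libraries as columns and red for above the mean. KO2 is red for 9 of 10 members, at 0.55 for Rel, while KO3 is blue for all 10, down to -0.41 for Bcl3.

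Levels of different members were compared per kilobase of the transcript with the longest coding sequence. On this scale Nfkbia was the highest member, with 121 ± 10.1 (WT) and 108 ± 21.7 (KO) CPM per kilobase (each SD, n = 3). Nfkb1 followed with 76.2 ± 1.62 in WT and 77.8 ± 3.96 in KO libraries (SD, n = 3), then Rela with 56.4 ± 1.08 and 53.8 ± 0.532 and Nfkb2 with 49.0 ± 2.68 and 51.6 ± 7.45. Nfkbiz (40.7 ± 2.30 in WT) and Relb (39.0 ± 3.15) were neighbours that did not differ beyond their SD. The same was true of Nfkbie (24.8 ± 2.09), Bcl3 (23.4 ± 0.877), Rel (22.7 ± 4.27) and Nfkbib (22.4 ± 2.69), which closed the order in WT libraries. In KO libraries Rel, at 28.6 ± 8.26, stood seventh, within its SD of Nfkbie at 26.4 ± 4.94.
The order depends on the length that is used. Nfkb1 is annotated with 12061 exon bases in all transcripts together but with 4117 in the transcript used, and per kilobase of all its exons it fell from rank 2 to rank 5 in WT libraries. Nfkbia had rank 1 on both lengths.

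**Figure D4:**
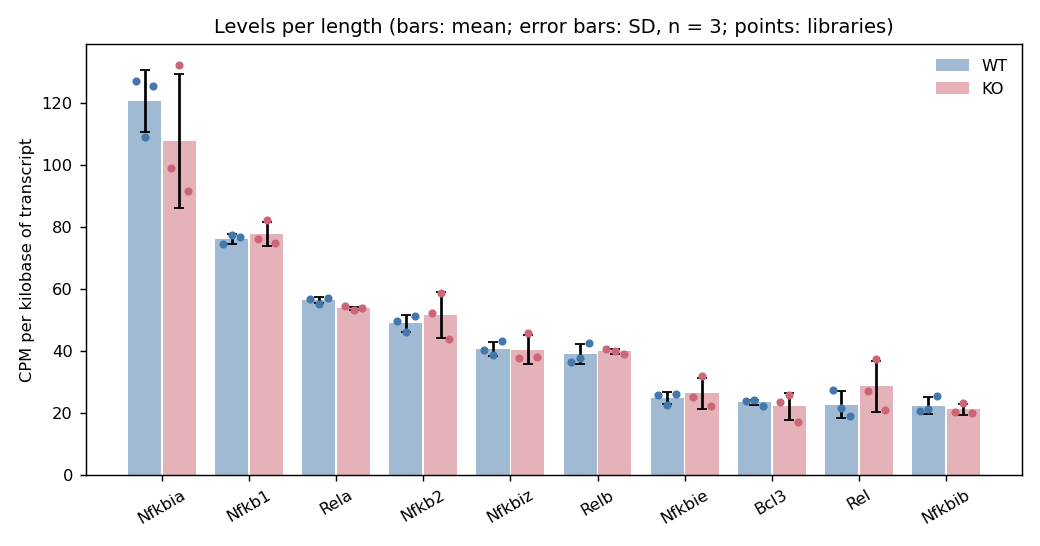
CPM per kilobase of transcript (y axis, from 0) for each member, ordered by the WT mean, with bars for the mean of the 3 WT (blue) and 3 KO (red) libraries, error bars for the SD (n = 3) and points for libraries. Nfkbia is highest at 121 in WT and 108 in KO libraries, and the last 4 members lie between 21.1 and 28.6.

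The shares of 4 of the 5 subunits in the subunit pool overlapped between the genotypes. Of the summed level per kilobase of the 5 subunits, Nfkb1 made 30.4% to 32.5% in WT and 30.3% to 32.2% in KO libraries. Rela made 23.2% in each WT library and 19.6% to 23.1% in KO libraries, just below the WT range. Rel made 7.69% to 11.2% in WT and 9.07% to 13.8% in KO libraries. The ratio of Rel to Rela per kilobase was 0.481, 0.394 and 0.332 in the WT libraries. It was 0.500, 0.702 and 0.392 in the KO libraries, which overlapped with WT. The ratio of Nfkb2 to Nfkb1, 0.594 to 0.667 in WT and 0.585 to 0.712 in KO libraries, overlapped as well.
Among the inhibitors, Nfkbia made 50.6% to 53.5% of the pool in WT and 48.3% to 51.1% in KO libraries. Nfkbie made 10.4% to 10.9% in WT and 11.8% to 12.3% in KO libraries, without overlap, although its CPM ranges overlapped. The summed inhibitors stood to the summed subunits as 0.972, 0.904 and 0.983 in WT and as 0.819, 0.954 and 0.812 in KO libraries. KO1 and KO3 were below all WT libraries in this ratio and KO2 was among them. No test was run on these shares, and the values are given as a description.

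The genes around the members were read from lists written from general knowledge of the pathway. Of the ligands and receptors, 17 of 19 were tested, of which 0 passed an adjusted p-value of 0.05. The median log2 fold change was 0.052 with 10 of 17 higher, against 50.6% of all tested genes. The unadjusted p-value was under 0.05 for 3 of the 17, of which 1 was higher and 2 were lower in KO libraries, against 6.25% of all tested genes. Tnfrsf11a, which encodes the receptor RANK, had 3.31, 2.17 and 3.23 CPM in WT and 6.95, 9.38 and 7.90 CPM in KO libraries. All KO libraries were above all WT libraries, as for 5.83% of all tested genes, and the log2 fold change was 1.47 ± 0.27 (SE; edgeR, adjusted p = 0.307). Ltb, the lymphotoxin β subunit that signals to the non-canonical pathway, had 436, 483 and 567 CPM in WT and 398, 340 and 423 CPM in KO libraries, again without overlap. Its log2 fold change was -0.36 ± 0.13 (SE; edgeR, adjusted p = 0.769). Tnfrsf18, which encodes the T cell costimulator GITR, was at 26.4 ± 2.75 (WT) and 20.3 ± 1.34 CPM (KO, each SD, n = 3) (log2 fold change -0.38; edgeR, adjusted p = 0.740).

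All 28 adaptors and kinases were tested, and 0 had an unadjusted p-value under 0.05, where the share of all tested genes was 6.25%. Of the 28, 14 were higher and 14 lower, and their median was 0.00054, with a range from -0.28 to 0.19. The list holds the subunits of the IκB kinase complex, Chuk, Ikbkb and Ikbkg, the kinase NIK (Map3k14) and Bcl10 and Malt1, which act together downstream of antigen receptors.
Of the 12 negative regulators, all tested, 6 were higher and 6 lower with a median of -0.0019, and 0 passed the adjusted threshold. The unadjusted p-value was under 0.05 for 1 of the 12, against 6.25% of all tested genes. Tnip1, which encodes ABIN1, a partner of the deubiquitinase A20, had 137, 149 and 137 CPM in WT and 185, 156 and 177 CPM in KO libraries. The ranges did not overlap, and the log2 fold change was 0.29 ± 0.093 (SE; edgeR, adjusted p = 0.712).

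Of 32 target genes outside the members 28 were tested, and 0 passed the adjusted threshold. The mean in KO libraries was higher for 22 and lower for 6, where 50.6% of all tested genes were higher, and the median was 0.091. The unadjusted p-value was under 0.05 for 3 of the 28, against 6.25% of all tested genes. The other 4 had too few counts to be tested. Vcam1, an adhesion molecule, had 150, 113 and 92.1 CPM in WT and 289, 382 and 143 CPM in KO libraries. KO1 and KO2 were above all WT libraries and KO3 was not (2.29-fold; edgeR, adjusted p = 0.624). Ccl5, a chemokine of effector T cells, had 576, 385 and 342 CPM in WT and 227, 329 and 333 CPM in KO libraries, without overlap (log2 fold change -0.55, standard error 0.22; edgeR, adjusted p = 0.786). Bcl2a1b, a survival gene with near-identical copies among which reads may be divided, was at 33.8, 24.8 and 29.3 CPM in WT and at 39.9, 37.8 and 33.1 CPM in KO libraries (log2 fold change 0.34; edgeR, adjusted p = 0.786).
Cell type marker lists were read beside these genes. All 7 cDC1 markers and all 8 B cell markers had a higher mean in KO libraries, and 7 of 8 T cell markers a lower one. The mean was also higher in KO libraries for all 7 erythroid markers (median log2 fold change 1.11), all 5 neutrophil markers (0.70) and 6 of 7 monocyte or macrophage markers (0.38). Of the cDC1 markers 4 and of the monocyte or macrophage markers 2 had an unadjusted p-value under 0.05, where 6.25% of all tested genes had one, and 0 passed the adjusted threshold in any of the 6 lists. Their part in the values of Tnfrsf11a, Tnip1, Vcam1, Ltb and Ccl5 was not tested.

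**Figure D5:**
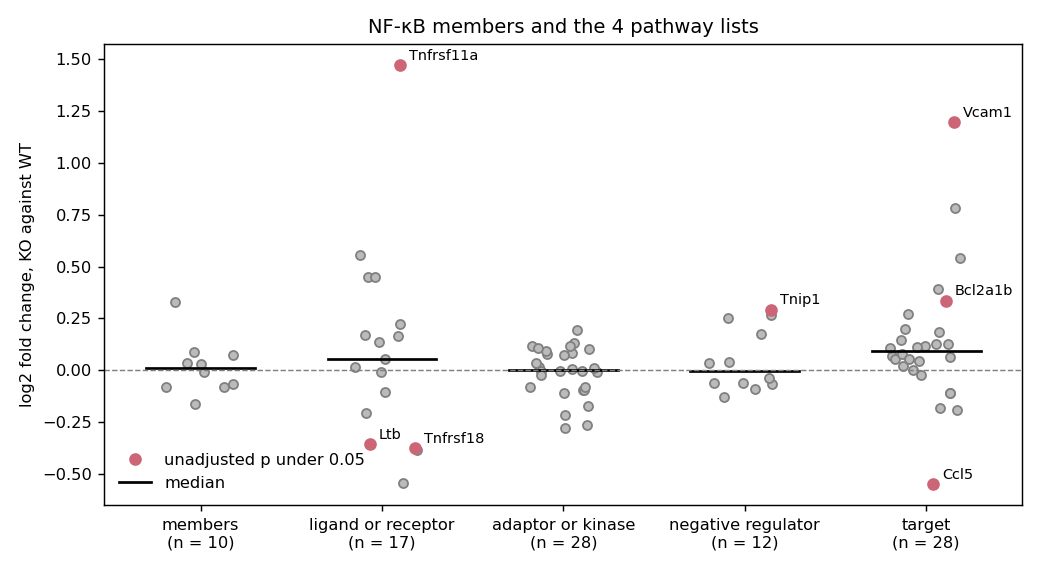
Log2 fold change in KO against WT libraries (y axis, log2 scale) of the 10 members and of the tested genes of 4 pathway lists, with black lines for medians and red points for genes at an unadjusted p-value under 0.05. The members lie between -0.16 and 0.33, and the named genes reach from -0.55 (Ccl5) to 1.47 (Tnfrsf11a).

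For each member the gene with the most similar pattern over the 6 libraries was sought among 9275 genes with a mean of at least 10 CPM, by Pearson's r of log2 CPM. With 6 libraries of shared depth and cell make-up, and this many genes, high values arise by selection, and they are given as a description. Rel was most like Slfn4 (r = 0.998), and 410 genes reached an r of 0.9 with it, the most of any member. Nfkbia had the fewest such genes, 32, and its nearest was Clk3 (r = 0.981). Nfkb2 was most like Rhob (0.989), Nfkb1 like Npepps (0.997), Rela like Med21 (0.988) and Relb like Rps6kc1 (0.992). For the other inhibitors these were Hps1 (0.990) for Nfkbib, Hip1r (0.994) for Nfkbie, Stx16 (0.972) for Nfkbiz and Brd3 (0.989) for Bcl3.

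Exons of 3 members overlap those of other genes on the opposite strand, and whether the counting used strand is not given in the sources used here. Nfkb2 shares 6.52% of its exon bases with Psd, which had 47 to 83 counts per library against at least 1201 for Nfkb2, and 11.6% with AC114539.1, which was not analysed here. Nfkbib shares 14.5% with Ccer2 (0 to 4 counts) and 1.94% with Sirt2 (490 to 593 counts). Bcl3 shares 6.51% with Gm16175, which had 0 counts in every library. Reads in these stretches are uncertain for the genes named.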

How the data were processed

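RNA-seq was analysed for 3 WT and 3 KO libraries (SMARTER mRNA kit). The files deposited by the authors hold expected counts, estimates of reads for each Ensembl gene with fractions allowed, as the values show. The submitters' processing notes name GRCm38 (mm10); aligner, counting program, annotation and strand are not given in the sources used here. Counts were rounded and analysed in R 4.3.3 with edgeR 4.0.16 (TMM, filterByExpr, min.count 10 and min.total.count 15, quasi-likelihood test, Benjamini-Hochberg adjustment over 13024 genes). Of the gene identifiers, 44121 (98.75%) were matched to symbols in GENCODE M21. CPM are TMM-scaled, and intervals are 95% from the fit. Groups came from sample titles. Libraries totalled 8143920 to 8876510 counts. Members, lists and alternatives were chosen with earlier results of these data known, and the members' p-values were adjusted over all genes. All members were named. From each pathway list the genes lowest in unadjusted p-value (under 0.05, at most 3) were named, and as the most similar gene of each member the 1 with the highest r. Alternatives were DESeq2 1.42.0, limma 3.58.1 (voom), upper-quartile factors, 2 other filters, unrounded counts, the replicate number as a block, a marker covariate and each library left out. The procedure was tested on simulated data.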

Additional observations from a re-analysis of the deposited data

How the results depend on the processing

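No member had an adjusted p-value under 0.05 in any of the 14 alternatives, where the lowest was 0.288 (Rel without KO replicate 3). The number of genes called, 4, was 56 with DESeq2, 12 without a filter on low counts, 9 with the replicate block and 11 with the marker covariate, and 2 to 94 with each library left out, the most without KO replicate 3. The block kept the direction of all 10 members; same-numbered libraries had deviation correlations of -0.010, -0.20 and 0.11, so the numbers were not taken as pairing. The number of members higher in KO, 5, was 3 with the marker covariate and 2 to 7 with a library left out, the fewest without KO replicate 2. The pathway genes at an unadjusted p-value under 0.05, 7, were 11 with the covariate and 3 to 18 with a library left out. The covariate includes cDC1 markers, whose sums did not overlap between the genotypes, so a fit with it cannot separate cell make-up from genotype. With the covariate the log2 fold changes of Nfkb2 and Nfkbie were reversed to -0.058 and -0.070. With a library left out they ran from -0.013 to 0.039 for Nfkb1, -0.028 to 0.16 for Nfkb2, -0.013 to 0.084 for Relb, -0.15 to 0.0031 for Nfkbib, -0.071 to 0.17 for Nfkbie, -0.11 to 0.023 for Nfkbiz and -0.21 to 0.049 for Bcl3, all crossing 0. Rel, Rela and Nfkbia kept their direction in all 14, with 0.088 to 0.49, -0.092 to -0.061 and -0.34 to -0.080 with a library left out. The cause of these moves was not tested. At 277 to 2817 counts per library, counting error was below the spread between libraries for most members, but above it for Rela in both groups, Bcl3 in WT and Relb in KO libraries.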

Other observations

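A further list of 10 proteins that bind or modify NF-κB outside the pathway lists was written after the members' values had been seen. Among them were Nkiras1 and Nkiras2, which encode κB-Ras proteins that bind IκBβ, the nuclear proteins Nkrf, Nkap and Akirin2, Nfkbil1, and the COMM-domain genes Commd3, Commd6 and Commd7. All 10 were tested and 0 had an unadjusted p-value under 0.05, where the share of all tested genes, 6.25%, would give fewer than 1. The lowest p-value was that of Commd3, at 41.8 CPM in WT and 34.2 CPM in KO libraries on average, with a log2 fold change of -0.29 and a standard error of 0.13 (edgeR, adjusted p = 0.786). Nfkbil1, a gene of the MHC region that is related to the IκB genes by its repeats, had a log2 fold change of -0.28 with a standard error of 0.14 (edgeR, adjusted p = 0.816). Nkiras1 had the largest rise in mean of the list, 0.19 with a standard error of 0.13 on the log2 scale (edgeR, adjusted p = 0.826).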
